A study of Mus musculus with 27 samples.

Results

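The genes described here encode the machinery that brings nuclear-encoded proteins into mitochondria. Members were all genes on the array with a name that starts with Tomm or Timm and a digit, together with Samm50, Mtx1, Mtx2, Pmpca, Pmpcb, Dnajc19, Grpel1 and Grpel2. They come to 30 of the 35527 gene names on the array, on 49 probes. No probe carried the name Pam16, and that gene is on the array under its older symbol Magmas. Timm10b is likewise on the array under its older symbol Fxc1. Both are counted with the wider pathway. RNA was measured in 27 single myofibers from the tibialis anterior muscle of male mice, amplified exponentially fiber by fiber and hybridized in 1 colour, 1 fiber to an array. The 8 Wt myofibers came from 2 mice labelled wild type, 4 from each. The 12 Smn1ΔSkm myofibers came from 3 HSA-Cre, Smn F7/F7 mice. In these mice exon 7 of Smn lies between LoxP sites. Cre under a human skeletal actin promoter removes that exon in skeletal muscle, while other tissues keep it. The 7 AFS-treated myofibers came from 2 mice of that same genotype, 4 and 3 each, that had received GFP+ c-kit+ amniotic fluid stem cells through the tail vein and were sacrificed a month later. The labels give 3 months as the age of every mouse, although the methods set the injection at that age. The methods also name GFP+ C57BL/6 mice as a source of fibers, without saying which samples they are.

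Almost all mitochondrial proteins are made in the cytosol. They enter through the TOM complex of the outer membrane and are then sorted: the SAM complex builds beta-barrel proteins into the outer membrane, small TIM chaperones guard hydrophobic proteins across the intermembrane space, TIM22 inserts carriers such as the ADP/ATP translocase, and TIM23 passes proteins with an N-terminal presequence to the matrix. There an ATP-driven motor pulls the chain in and the processing peptidase cuts the presequence off. Muscle fibers are rich in mitochondria and keep this route in steady use.

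Levels are log2 signals relative to the 75th percentile of the same array, so a level of 0 is that percentile. Between 23183 and 37595 probes had a value on an array, with medians of 25156 in Wt, 31433.5 in Smn1ΔSkm and 27431 in AFS-treated fibers. Precision is limited by how few arrays and mice there were. The 8 Wt arrays shared 1 slide, scanned on a day with no other group, so slide, scan day and the difference from Wt cannot be told apart. Smn1ΔSkm myofibers 1 to 3 of mouse 1 and AFS-treated myofibers 2 and 3 of mouse 1 share scan day 1, and the remaining fibers of both groups scan day 2. Within a day those groups lay on different slides, apart from 1 slide of day 2 with 1 fiber of each. Smn1 itself, the gene from which Cre removes an exon, had 2 probes. One lay at 1.86 and 1.84 in the Wt mice, at -0.07, 0.20 and 0.36 in the Smn1ΔSkm mice and at -0.34 and 0.82 in the AFS-treated mice. It was lower in Smn1ΔSkm than in Wt, with a log2 difference of -1.68 (limma, adjusted p over all probes 0.0205), while the other Smn1 probe differed by 0.19 (0.717), and which part of the gene each covers was not analysed here. Among the myofiber markers, Acta1 was at 8.63 in Wt and 7.96 in Smn1ΔSkm, and all 27 arrays had a value for it.

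Of the 30 import genes, 25 had a probe measured on 75% or more of the arrays and were tested. Tests compared mouse means, since the genotype belongs to the mouse, and p-values were adjusted over all 17059 genes of the comparison. In Smn1ΔSkm against Wt, 5 of the 25 were called at an adjusted p under 0.05, all of them lower: Tomm6, Mtx1, Pmpca, Timm17b and Timm22. That is 20% of the tested import genes. Over all genes tested 21.7% were called, 14.1% lower and 7.67% higher, so the share of called import genes lay near that of the array. The median difference of the import genes was -0.39 against -0.14 for all genes. Below 0 lay 18 of the 25, or 72.0%, against 55.5% of all genes. In 12 of the 25 (48.0%) every Smn1ΔSkm mouse lay below both Wt mice, which held for 33.7% of all genes, and in 3 (Mtx2, Timm17a and Tomm40) every Smn1ΔSkm mouse lay above both, which held for 21.7%. For Tomm40 and Timm17a this rests on the brightest probe. At the other probe of each the order was reversed, with every Smn1ΔSkm mouse below both Wt mice. The lower side also depends on the probe. At the other tested probe of Pmpca, Timm10, Timm50, Tomm20 and Tomm5, the highest Smn1ΔSkm mouse exceeded the lower Wt mouse. The other probes of Timm17b and Timm23 kept the order. With 1 Wt mouse left out and the remaining one taken to vary like the other groups, limma called 0 genes of the array, with 3622 genes at an unadjusted p under 0.05 without mouse 1 and 4656 without mouse 2. Without Smn1ΔSkm mouse 1 it called 10 import genes, without mouse 2 it called 1, without mouse 3 it called 2, and without either AFS-treated mouse, which share the estimate of the spread, 2. Over the whole array limma called 7385 of 17059 genes without Smn1ΔSkm mouse 1 and 1377 without mouse 2. Scaling changed the split. Quantile normalization gave 1 higher and 2 lower, against 1202 and 1582 of 17059 genes. Normexp before it gave 2 higher and 3 lower, against 1039 and 1622. The authors' values gave 1 higher and 2 lower, against 1241 and 1803 of 18768 genes. Centring each array on the probes with a value everywhere gave 2 higher and 1 lower, against 1746 and 1376 of 17059. That centring moved the median of all genes to 0.08. Under these 4 scalings the median of the import genes lay between -0.19 and -0.15.

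**Figure D1:**
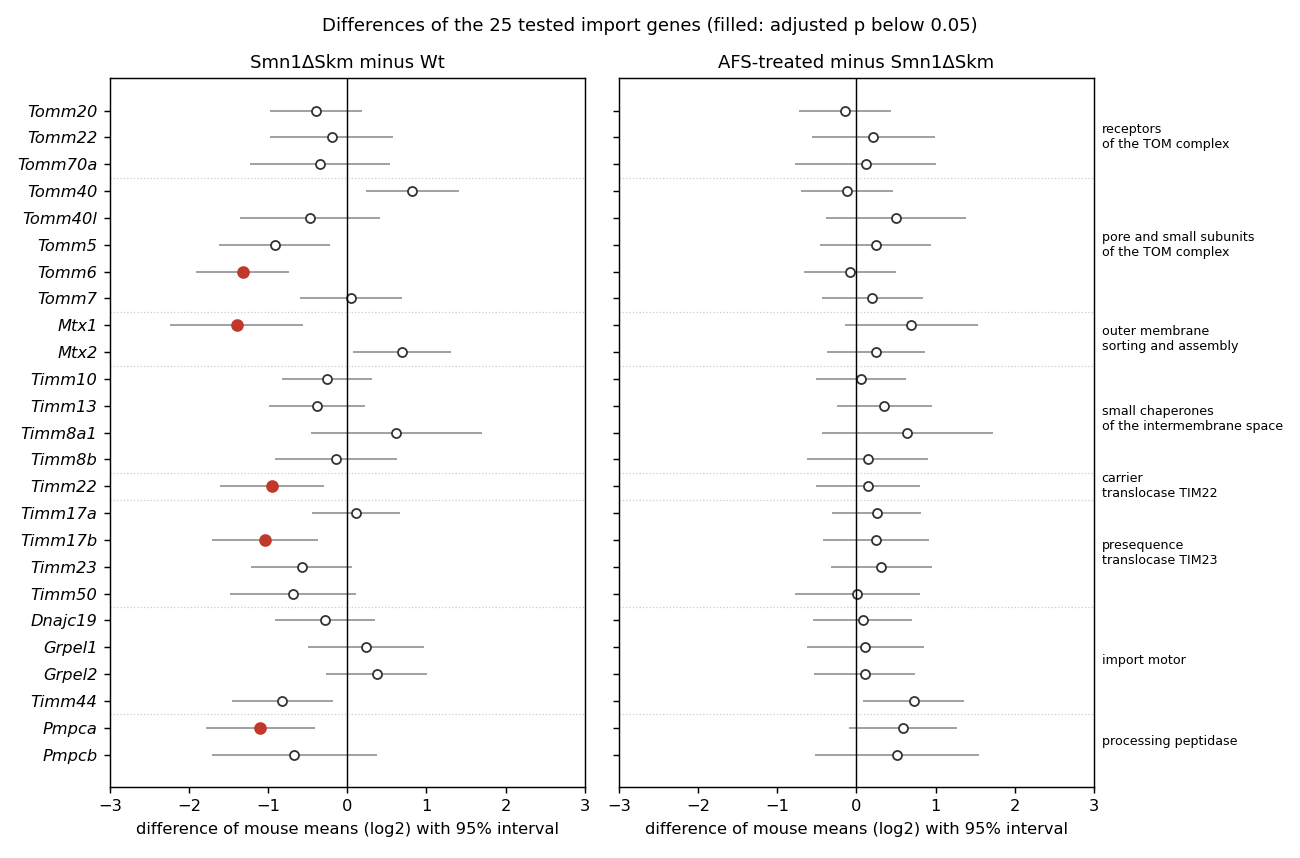
Differences of the 25 tested import genes on the log2 scale with 95% intervals, Smn1ΔSkm minus Wt on the left and AFS-treated minus Smn1ΔSkm on the right, grouped by role; filled points have an adjusted p below 0.05. The 5 filled points on the left lie between -1.40 and -0.95, and the right panel has none.

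Tomm6 is a small subunit that steadies the TOM complex. Fxc1 of the wider pathway had a lower adjusted p, but among the 25 tested import genes that of Tomm6 was the lowest. The Wt mice lay at 4.83 and 4.64 and the Smn1ΔSkm mice at 3.40, 3.37 and 3.46. Over single fibers the Wt levels ran from 3.89 through a median of 4.87 to 5.25 and the Smn1ΔSkm levels from 2.27 through 3.51 to 4.29. All but 1 of the 12 Smn1ΔSkm fibers lay under the lowest Wt fiber, and the mouse means of the 2 groups did not overlap. The difference was -1.32 (SE 0.256, adjusted p = 0.0152 by limma), a level 2.50-fold lower. Tomm6 was called lower in 19 of the 22 alternative analyses. A second, much dimmer Tomm6 probe could not be tested. It had values on 0 of 8 Wt, 5 of 12 Smn1ΔSkm and 0 of 7 AFS-treated arrays.

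Mtx1 encodes metaxin 1, an outer membrane partner of the SAM complex. Fxc1 of the wider pathway differed by -1.49, and among the 25 tested import genes Mtx1 showed the largest difference. Its Wt mice were at 1.56 and 1.71, and the Smn1ΔSkm mice at -0.37, 0.32 and 0.75. In single fibers Wt spanned 1.32 to 1.97 with a median of 1.59, and Smn1ΔSkm spanned -0.76 to 1.04 with a median of 0.28. None of the 12 Smn1ΔSkm fibers reached the lowest Wt fiber. The share of all genes that separate so by fiber was not counted, for Mtx1 or for any other import gene. The difference was -1.40 (SE 0.367, adjusted p = 0.0323 by limma). Mtx1 was called lower in 15 of the 22 alternative analyses, but not under quantile normalization, in the authors' value table, with centring, without a filter, without Smn1ΔSkm mouse 2 or without either Wt mouse. Mtx2, which encodes the partner metaxin 2, lay at 1.21 and 0.94 in the Wt mice and at 1.95, 1.48 and 1.86 in the Smn1ΔSkm mice, a difference of 0.69 that did not pass (adjusted p = 0.0977) but was called higher in 3 of the 22, normexp and centring among them. Both genes thus stood on opposite sides of Wt. The Mtx1 level minus the Mtx2 level was 0.36 and 0.76 in the Wt mice and -2.33, -1.16 and -1.11 in the Smn1ΔSkm mice, a change of -2.09. Over 6 pairs of related genes, chosen with their values known, the exact two-sided permutation p of such a change ran from 0.1 to 0.8 (adjusted 0.30 to 0.8); 2 mice against 3 cannot give a p below 0.1, so no pair could pass.

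Samm50, the beta-barrel channel of the SAM complex, could not be tested, because its spot was not found at its place on 7 of the 27 arrays. The probe was well above background on all 27. Its signal, kept whatever that flag, ran from 1.39 through 2.95 to 3.16 in Wt, from 1.98 through 2.87 to 4.22 in Smn1ΔSkm and from 3.29 through 3.78 to 4.88 in AFS-treated fibers. All 7 AFS-treated fibers were thus above every Wt fiber, and how many other genes separate in this way was not counted. With spots kept on the background flag alone, an alternative added after the values were seen, Smn1ΔSkm differed from Wt by 0.39 (limma, adjusted p = 0.496) and AFS-treated from Wt by 1.21 (adjusted p = 0.112).

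Pmpca and Pmpcb encode the alpha and beta subunits of the matrix processing peptidase. Pmpca lay at 1.02 and 1.00 in the Wt mice and at 0.30, -0.16 and -0.41 in the Smn1ΔSkm mice. Its fibers ran from 0.53 through 0.98 to 1.65 in Wt and from -0.93 through -0.13 to 1.43 in Smn1ΔSkm, and 10 of the 12 lay below the lowest Wt fiber. The difference was -1.10 (SE 0.299, adjusted p = 0.0360 by limma), and 12 of the 22 alternative analyses called it lower. A second, dimmer Pmpca probe had values on 4 of 8 Wt arrays and differed by 0.23 (limma, adjusted p over all probes 0.635). Pmpcb was at 3.12 and 2.98 in Wt and at 3.32, 2.11 and 1.70 in Smn1ΔSkm, a difference of -0.67 (adjusted p = 0.302). Mouse 1 carried the 2 Pmpcb fibers above every Wt fiber, and 9 others were below every Wt fiber. Its 3 fibers of scan day 1 lay at 3.93, 4.75 and 3.24 and its fiber of scan day 2 at 1.37. Without Smn1ΔSkm mouse 1 the Pmpcb difference was -1.14 and was called, and without myofibers 1 to 3 it was -1.32 and was called too.

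The presequence translocase TIM23 had 4 members measured. Timm17b, 1 of the 2 alternative Timm17 subunits, lay at 4.28 and 4.02 in the Wt mice and at 2.73, 3.21 and 3.37 in the Smn1ΔSkm mice. Single fibers spanned 3.42 to 4.70 in Wt with a median of 4.25 and 1.71 to 3.49 in Smn1ΔSkm with a median of 3.29, and 10 of 12 were below the lowest Wt fiber. The difference was -1.04 (SE 0.294, adjusted p = 0.0400 by limma). A second Timm17b probe gave -1.43 (adjusted p over all probes 0.0137). Timm17b was called lower in 9 of the 22 alternative analyses and under none of the 4 other scalings. The sister gene Timm17a lay at 5.30 and 5.29 in Wt and at 5.44, 5.47 and 5.30 in Smn1ΔSkm, a difference of 0.11 with a 95% interval from -0.45 to 0.67. Timm17b minus Timm17a was -1.02 and -1.27 in the Wt mice and -2.71, -2.26 and -1.92 in the Smn1ΔSkm mice, a change of -1.15 that rests on the brightest Timm17a probe.

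Timm23, the channel of that translocase, was at 5.85 and 5.47 in Wt and at 4.88, 5.34 and 5.02 in Smn1ΔSkm, a difference of -0.58 (limma, adjusted p = 0.162). Its dimmer probe gave -1.25 and was called (adjusted p over all probes 0.0266), and both probes moved together from fiber to fiber within a mouse (Pearson's r = 0.95 over 27 arrays, a description). Timm50, the receptor that receives presequences on the inner membrane, was at 3.64 and 3.26 in Wt and at 3.24, 2.27 and 2.77 in Smn1ΔSkm, a difference of -0.69 (adjusted p = 0.175). Timm22 forms the channel of the carrier translocase. It lay at 2.57 and 2.09 in the Wt mice and at 1.68, 1.28 and 1.18 in the Smn1ΔSkm mice. All 12 Smn1ΔSkm fibers, from 0.85 through 1.37 to 1.82, were below the lowest of the Wt fibers, which ran from 1.84 through 2.25 to 3.08. How many genes of the array separate so was not counted. The Timm22 difference was -0.95 (SE 0.288, adjusted p = 0.0481 by limma), the closest to the threshold of the called genes. Timm22 too was called lower in 9 of the 22 alternative analyses and under none of the 4 other scalings.

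**Figure D2:**
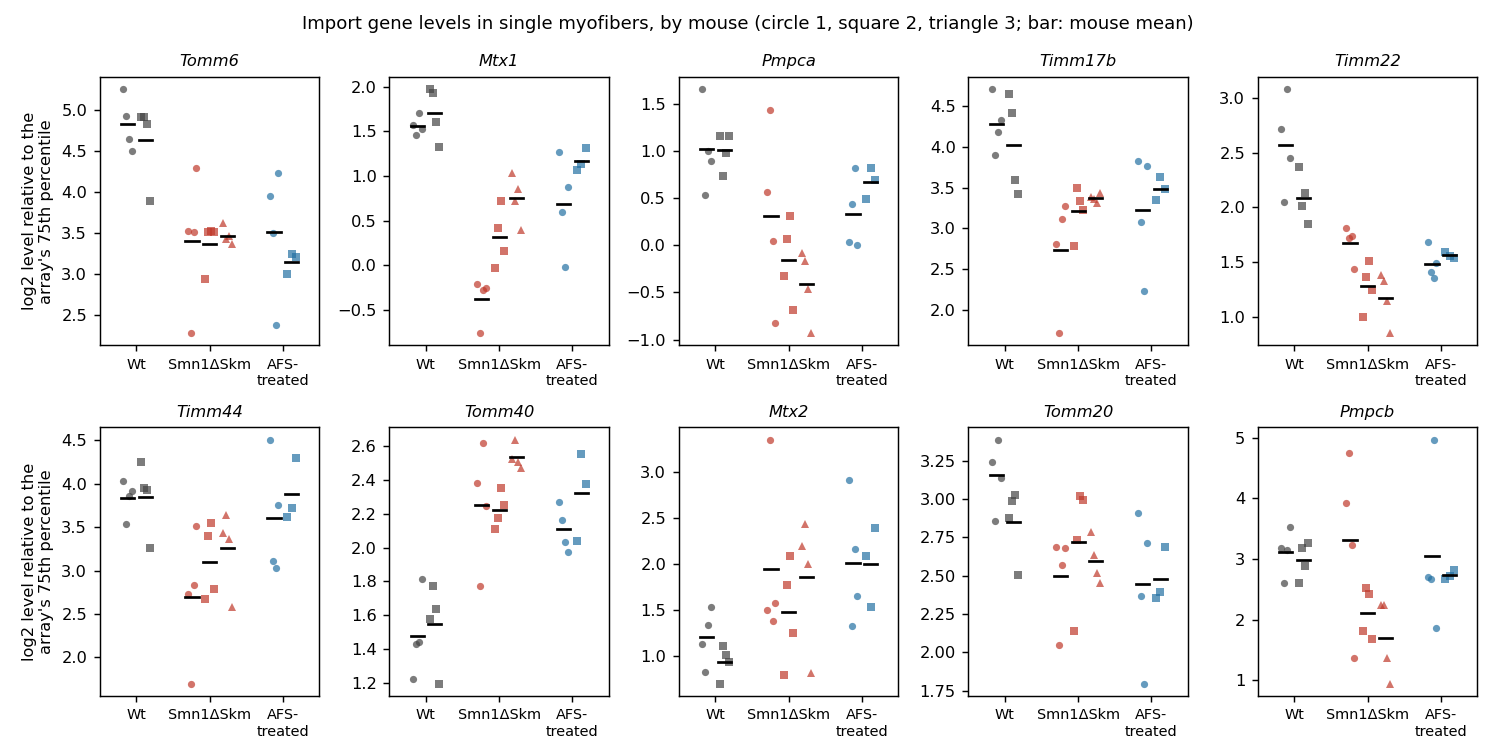
Levels of 10 import genes in single myofibers on the log2 scale, by group and mouse; each point is a fiber and each bar the mean of a mouse. In the upper row, the 5 genes called in Smn1ΔSkm against Wt, the Smn1ΔSkm mouse means lie below both Wt means; in the lower row Mtx2 and the brightest Tomm40 probe, 1 of 2 probes that disagree, lie above both.

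The import motor is built around mitochondrial Hsp70. Timm44, which tethers that chaperone to TIM23, lay at 3.84 and 3.85 in the Wt mice and at 2.70, 3.1 and 3.26 in the Smn1ΔSkm mice, a difference of -0.82 just short of a call (limma, adjusted p = 0.0657). Its fibers spanned 3.26 to 4.25 in Wt and 1.70 to 3.64 in Smn1ΔSkm, with 6 of 12 below the lowest Wt fiber. Dnajc19, the J-protein that stimulates the motor, differed by -0.28 at its brightest probe. Grpel1 and Grpel2, the nucleotide exchange factors, differed by 0.23 and 0.37. None of the 4 motor genes passed the test.

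None of the 3 receptors of the TOM complex passed the test. Tomm20, the presequence receptor, lay at 3.16 and 2.85 in Wt and at 2.50, 2.72 and 2.60 in Smn1ΔSkm, a difference of -0.40 with a 95% interval from -0.98 to 0.18 (limma, adjusted p = 0.275). Its fibers ran from 2.50 through 3.01 to 3.39 in Wt and from 2.05 through 2.66 to 3.02 in Smn1ΔSkm, and the groups overlapped in 9 of 12 Smn1ΔSkm fibers. Tomm22, the central receptor, was at 1.53 and 1.34 in Wt and at 1.81, 1.09 and 0.81 in Smn1ΔSkm, a difference of -0.20 (adjusted p = 0.688). Tomm70a, the receptor for carriers, was at 0.21 and -0.50 in Wt and at -0.88, 0.10 and -0.71 in Smn1ΔSkm, a difference of -0.35 (adjusted p = 0.532). Among the small TOM subunits, Tomm5 differed by -0.92 (adjusted p = 0.0623) and Tomm7 by 0.04. Tomm40l, a relative of the TOM pore, differed by -0.47.

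None of the 4 small TIM chaperones tested as members passed either. Fxc1, the Timm10b gene of the same family, is counted with the wider pathway and was called lower there. Timm10, Timm13, Timm8b and Timm8a1 differed by -0.26, -0.39, -0.15 and 0.62, with adjusted p between 0.305 and 0.767. Timm9, the partner of Timm10, failed the filter, with its brighter probe valued on 6 of 8 Wt, 5 of 12 Smn1ΔSkm and 4 of 7 AFS-treated arrays. Timm8a2 had a value on 0 of the 27 arrays. Of the other names, Tomm20l, a relative of Tomm20, had values on 1 of 8 Wt, 5 of 12 Smn1ΔSkm and 1 of 7 AFS-treated arrays at 1 probe and on 7 Smn1ΔSkm arrays and no others at its second probe. Tomm34, a cytosolic co-chaperone, had its spot not found on 9 arrays; kept on the background flag alone it differed by -1.23 in Smn1ΔSkm against Wt and was called (limma, adjusted p = 0.0300), and in the authors' value table by -0.98 (adjusted p = 0.0793).

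Tomm40, the pore through which nearly all imported proteins pass, had probes that disagreed. Both are assigned to the same transcript on the minus strand, at chr7:20296115-20296174 and chr7:20286707-20286766 of mm9, the build named in the array's header. The first, nearer the 5′ side, lay at 1.48 and 1.55 in the Wt mice and at 2.25, 2.22 and 2.53 in the Smn1ΔSkm mice. At 0.82 (SE 0.255) this difference did not pass over genes (limma, adjusted p = 0.0521), although 11 of 12 Smn1ΔSkm fibers lay above the highest Wt fiber. The other probe had a Wt mean of 1.90 and a Smn1ΔSkm mean of 0.76, a difference of -1.13 that was called (adjusted p over all probes 0.0224). Over fibers of the same mouse the 2 probes varied together (r = 0.57 over 27 arrays, a description), while between the groups they went opposite ways. Averaging both probes gave a difference of -0.16 (adjusted p = 0.669), so no direction is given for the Tomm40 gene. The first probe was called higher in 9 of the 22 alternative analyses.

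**Figure D3:**
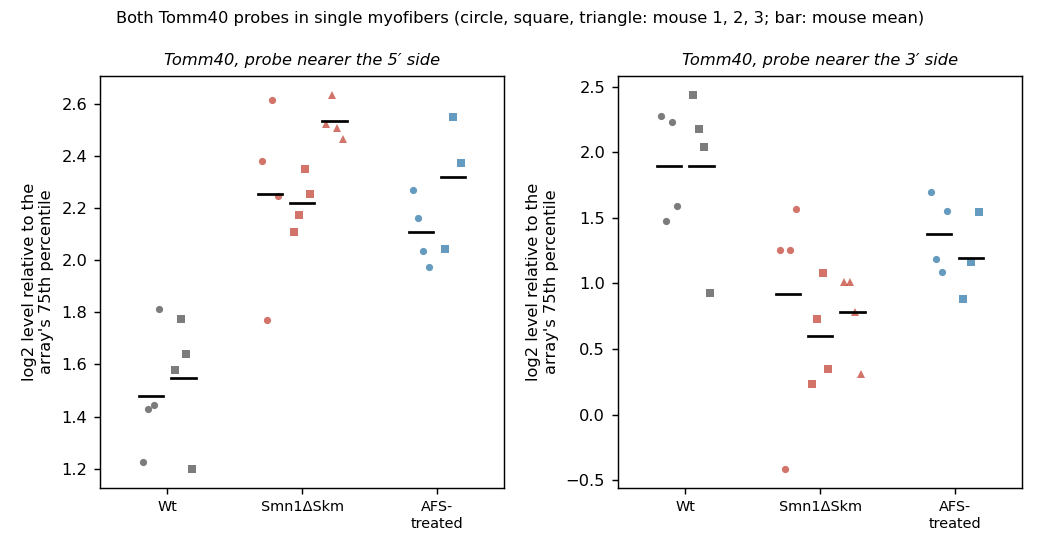
Levels of both Tomm40 probes in single myofibers on the log2 scale, by group and mouse, with bars at the mouse means. The probe on the left has Smn1ΔSkm fibers between 1.77 and 2.63 against 1.20 to 1.81 in Wt, and the probe on the right has them between -0.41 and 1.57 against 0.93 to 2.44.

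Over all 38 tested import probes 7 were called, all lower, against 21.3% of the 22882 probes tested. They were both Timm17b probes and 1 probe each of Tomm6, Mtx1, Pmpca, Timm23 and Tomm40, while the Timm22 probe missed the threshold over probes (limma, adjusted p = 0.0506). Dnajc19 had 3 probes at -0.28, -0.85 and 0.93, none of them called. Timm8a1 had 1 probe at 0.62 and 1 at -0.43, and Timm17a 1 at 0.11 and 1 at -0.31, none of them called. From fiber to fiber within a mouse, r between probes of the same gene ran from -0.58, between a pair of Dnajc19 probes, to 0.95 at Timm23, with a median of 0.33 over 14 pairs of probes.

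**Figure D4:**
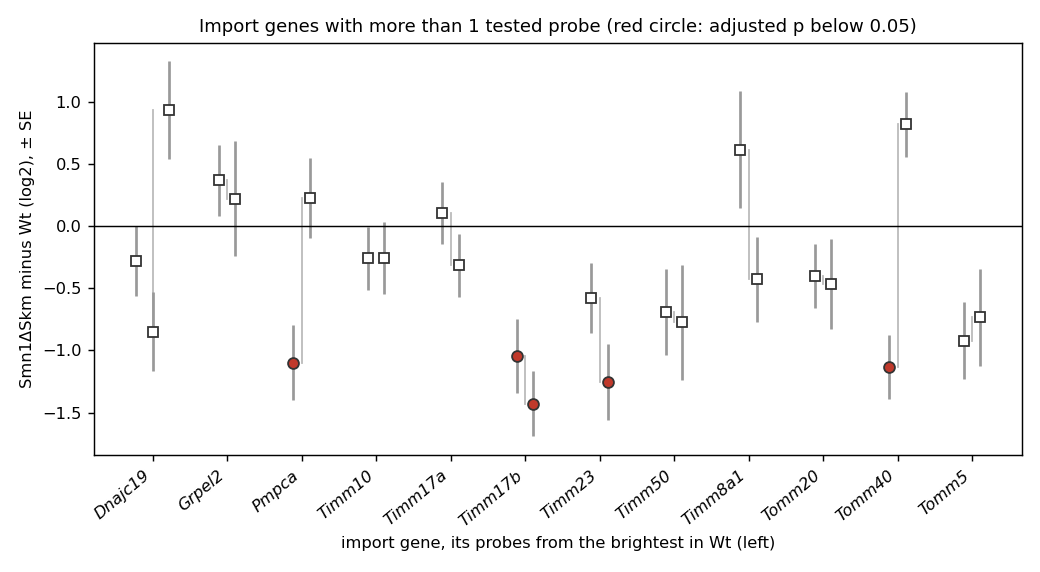
Smn1ΔSkm minus Wt on the log2 scale with standard errors for each import gene with more than 1 tested probe, ordered from the probe brightest in Wt; red circles have an adjusted p below 0.05 over all probes. Dnajc19, Pmpca, Timm17a, Timm8a1 and Tomm40 have probes on both sides of 0.

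The proximal promoters of these genes were read for motifs that are known from nuclear genes of mitochondrial proteins. RefSeq promoters of GRCm38.p6 were at hand for 27 of the 30 genes, and the 250 bases before the start site were searched on both strands. The ETS core CCGGAAG, bound by GABPA among others, was found in 12 of the 27 (44.4%), against 6.91% of all 32851 promoters and 8.98% of the 21263 promoters of protein-coding genes. The NRF1 core, GCGC on either side of any 2 bases, was found in 1 (3.70%, Tomm20) against 4.98%, and AAGGTCA, the site of the ERR receptors, in 1 (Timm8b) against 4.08%. Of the 5 genes called lower, Mtx1 and Pmpca held the ETS core, and Tomm6, Timm17b and Timm22 held none of the 3 motifs. It stood also before Mtx2, whose difference had the other sign, and before Pmpcb, Timm10, Timm23, Timm8b, Grpel1, Tomm22, Tomm34, Tomm70a and Timm8a2. These 4 promoters are shown because they set a called gene beside its partner and beside Tomm6, the tested import gene with the lowest adjusted p. The ETS core is in capitals on either strand. They lie at chr3:89213908-89214157 on the minus strand, chr2:74825562-74825811 on the plus strand, chr2:26389098-26389347 on the plus strand and chr17:47688387-47688636 on the minus strand.
Mtx1: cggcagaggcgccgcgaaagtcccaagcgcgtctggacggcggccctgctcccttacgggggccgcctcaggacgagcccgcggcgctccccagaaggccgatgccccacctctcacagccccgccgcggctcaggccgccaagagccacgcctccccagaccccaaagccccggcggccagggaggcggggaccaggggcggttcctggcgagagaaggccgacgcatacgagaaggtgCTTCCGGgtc
Mtx2: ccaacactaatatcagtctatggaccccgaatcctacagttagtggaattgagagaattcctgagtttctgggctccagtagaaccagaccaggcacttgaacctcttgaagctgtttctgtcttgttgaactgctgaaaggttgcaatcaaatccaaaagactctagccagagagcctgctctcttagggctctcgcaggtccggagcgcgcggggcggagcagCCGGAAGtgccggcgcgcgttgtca
Pmpca: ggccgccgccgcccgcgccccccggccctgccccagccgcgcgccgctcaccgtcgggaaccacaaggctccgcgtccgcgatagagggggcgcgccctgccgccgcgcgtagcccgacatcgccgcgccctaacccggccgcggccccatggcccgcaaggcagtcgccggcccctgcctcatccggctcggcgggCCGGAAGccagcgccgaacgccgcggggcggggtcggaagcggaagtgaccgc
Tomm6: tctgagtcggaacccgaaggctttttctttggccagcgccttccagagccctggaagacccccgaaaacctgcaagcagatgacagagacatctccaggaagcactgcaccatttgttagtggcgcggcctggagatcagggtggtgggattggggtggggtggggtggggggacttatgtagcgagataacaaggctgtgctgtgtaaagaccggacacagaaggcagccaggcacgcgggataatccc
The first base of the core lies 10 bases before the start in Mtx1, 25 in Mtx2 and 53 in Pmpca, and the Tomm6 window does not hold these letters.

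The comparison of AFS-treated with untreated Smn1ΔSkm mice asks whether the cells shifted these levels. No import gene was called, nor was any of the 16648 genes tested (0%), with 532 genes of the array and 1 import gene at an unadjusted p under 0.05. The import genes had a median difference of 0.21 against 0.06 for all genes, and 22 of 25 (88.0%) lay above 0 against 57.3% of all genes. In 5 of the 25 (Mtx2, Pmpca, Timm13, Timm17a and Timm44, 20%) both treated mice lay above every untreated mouse, which held for 12.4% of all genes. Scan days split this shift. On day 2, with 9 untreated and 5 treated fibers, 22 of 25 genes were above 0 and their median was 0.33, against 56.5% above 0 and a median of 0.06 for all genes. On day 1, with 3 untreated and 2 treated fibers of 1 mouse each, 7 of 25 were above 0 and the median was -0.16, against 62.1% and 0.21 for all genes. Fitting slide as a fixed term left 1 slide with an array of each group to compare, and the median was -0.10. Under quantile normalization, normexp and the authors' value table it lay between 0.06 and 0.09.

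Timm44 had the largest treated minus untreated difference, 0.72 with a 95% interval from 0.09 to 1.36 (limma, unadjusted p = 0.0303, adjusted p = 0.9997 over all genes). Its treated mice lay at 3.60 and 3.88, close to the Wt mice at 3.84 and 3.85, and 4 of the 7 treated fibers exceeded every untreated one. Mtx1 was next with 0.69 (95% interval -0.14 to 1.53), its treated mice at 0.68 and 1.17 still below both Wt mice. Pmpca differed by 0.58 (-0.10 to 1.27), with treated mice at 0.32 and 0.67, and Pmpcb by 0.52 (-0.52 to 1.55). On both scan days Mtx1 and Timm44 were above 0, at 0.71 and 0.85 for Mtx1 and at 0.65 and 0.71 for Timm44. Almost all treated and untreated fibers of a day lay on different slides, so agreement of the days does not separate treatment from slide. For Pmpca the day 1 difference was -0.05 and the day 2 difference 0.81.

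**Figure D5:**
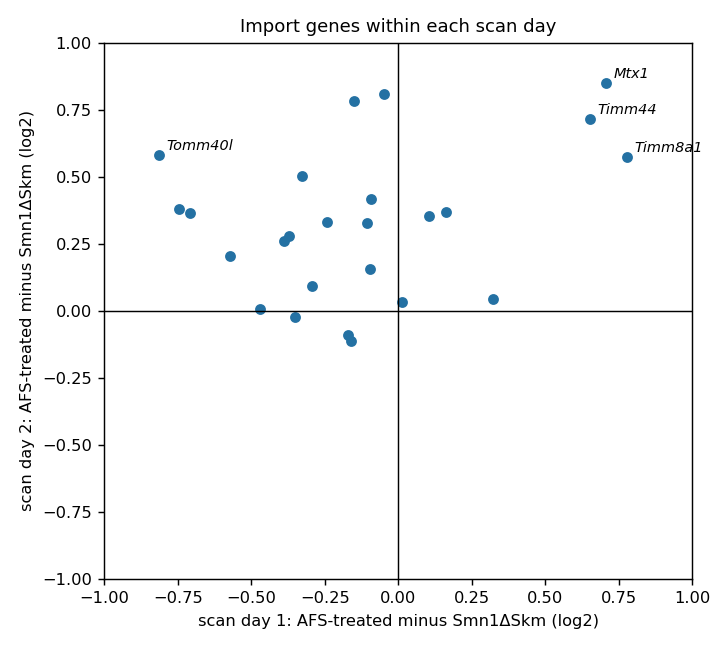
AFS-treated minus Smn1ΔSkm on the log2 scale for the 25 tested import genes, within scan day 1 on the horizontal axis and within scan day 2 on the vertical axis, 1 point per gene. On day 2 22 genes lie above 0, against 56.5% of all genes, and on day 1 7 do, against 62.1%; the 7 (Mtx1, Timm44, Timm8a1, Tomm70a, Timm23, Timm17b and Dnajc19) lie above 0 on both days.

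Tomm6 did not share that direction. Its treated mice were at 3.51 and 3.15, its treated minus untreated difference was -0.08 (95% interval -0.67 to 0.50), and its difference from Wt was -1.41 (SE 0.280, adjusted p = 0.0308 by limma). It was the only import gene called in AFS-treated against Wt, 1 of 25, against 7.77% of the 16648 genes called, 4.3% lower. Timm22 and Timm17b differed from Wt by -0.81 and -0.79 in the treated mice and did not pass (adjusted p = 0.134 and 0.145). All 7 treated Timm22 fibers and all 7 treated Mtx1 fibers were below the lowest Wt fiber, and how many genes separate so by fiber was not counted. By mouse means, both treated mice lay below both Wt mice in 40% of the import genes and 36% of all genes. They lay above both in 24% of the import genes and 31.9% of all genes. On the other side, Timm8a1 differed from Wt by 1.26 (adjusted p = 0.148), Mtx2 by 0.93 (adjusted p = 0.0845) and Tomm40 at its brightest probe by 0.70 (adjusted p = 0.140), none of them called. The other Tomm40 probe, the brighter of the pair in Wt, differed by -0.61 (limma, adjusted p over all probes 0.192). The other Timm8a1 probe differed by -0.03 (0.966). This comparison shares its Wt mice with the first and its treated mice with the second, so the 3 sets of differences are not independent. The median of the import genes was -0.15 against -0.04 for all genes.

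The SD between fibers of a mouse had a median over the import genes of 0.42 in Wt, 0.35 in Smn1ΔSkm and 0.42 in AFS-treated mice, against 0.47, 0.37 and 0.37 over all genes. Pmpcb had 1 AFS-treated fiber, myofiber 3 of mouse 1, at 4.97, while the other 6 lay between 1.86 and 2.82. Timm22 varied least in AFS-treated mice with 0.11. Tomm40 at its brightest probe had an SD of 0.25 in Wt, 0.22 in Smn1ΔSkm and 0.19 in AFS-treated mice.

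The wider import pathway was read from a list of 43 genes, of which 39 were tested in Smn1ΔSkm against Wt. Of these 9 were lower and none higher, or 23.1% called lower against 14.1% of all genes, and the median was -0.55 against -0.14. In the matrix, Dnaja3 and Trap1, the Hsp40 and Hsp90 chaperones of mitochondria, had differences of -1.94 and -1.83 (limma, adjusted p = 0.0109 and 0.00834), and Dnajc15, a J-protein, one of -1.17 (0.0259). Of the peptidases, Yme1l1 and Spg7, AAA proteases of the inner membrane, differed by -2.32 and -1.92 (adjusted p = 0.00725 and 0.00903), and Immp1l, an inner membrane peptidase, by -1.06 (0.0353). Fxc1, the Timm10b gene and a small subunit of TIM22, differed by -1.49 (adjusted p = 0.0114). The insertase Oxa1l differed by -0.95 (0.0454) and the cytosolic chaperone Hsp90ab1 by -1.09 (0.0290). Hspa9, the mitochondrial Hsp70 that drives the motor, differed by 1.02 in Smn1ΔSkm against Wt (adjusted p = 0.0639) and by 1.56 in AFS-treated mice against Wt, where it was called higher (0.0449). Fxc1 and Yme1l1 were called lower there, at -1.29 and -2.31 (0.0353 and 0.0167). Magmas, the Pam16 gene, differed by -0.36 (adjusted p = 0.366). In AFS-treated against untreated mice 0 of 39 were called and the median was 0.38.

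Other genes differed between Smn1ΔSkm and Wt as well. Of 10 myofiber markers 4 were called: Ckm, Mylpf and Ryr1 lower at -1.76, -1.99 and -1.56 and Myh1, the fast IIx myosin, higher by 2.20. Of 5 immune markers 2 were called, Ptprc by 1.33 and Cd68 by 2.99, and the summed linear level of that list ran from 1.04 to 2.21 in Wt, 2.54 to 16.0 in Smn1ΔSkm and 2.44 to 14.9 in AFS-treated fibers. For the 10 myofiber markers the sums ran from 1479 to 2392 in Wt, 818.7 to 1484 in Smn1ΔSkm and 1418 to 2123 in AFS-treated fibers. Of 22 markers of satellite, stromal, endothelial, Schwann and mural cells, 0 were called, but 14 had too few values to be tested. Among those 14, the stromal gene Dcn had values on 1 of 8 Wt, 12 of 12 Smn1ΔSkm and 5 of 7 AFS-treated arrays and Col1a1 on 2, 9 and 5, while Pdgfra had 1 value, on a Smn1ΔSkm array. Of the tested stromal and mural genes, Col1a2 differed by 1.20, Col3a1 by 1.07 and Acta2 by 1.28 in Smn1ΔSkm against Wt (limma, adjusted p = 0.176, 0.428 and 0.135). The summed level of the stromal list ran from 0.804 to 116.4 in Wt, 1.53 to 34.5 in Smn1ΔSkm and 1.94 to 22.6 in AFS-treated fibers. Of the satellite cell genes, Cdh15 had values on 8 Wt, 11 Smn1ΔSkm and 7 AFS-treated arrays and Myf5 on 7, 11 and 7. Pax7 had a value on 1 of each group and Calcr on none. With no flag applied, the mean levels of Pax7 were -4.127, -4.577 and -4.542 in Wt, Smn1ΔSkm and AFS-treated fibers. In Smn1ΔSkm against Wt, Myf5 differed by 0.44 and Cdh15 by -0.33 (limma, adjusted p = 0.286 and 0.453). The sums of that list ran from 0.473 to 1.62 in Wt, 0.50 to 23.6 in Smn1ΔSkm and 0.709 to 1.37 in AFS-treated fibers. Their part in the differences of the import genes was not tested.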

How the data were processed

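RNA of 27 single myofibers was exponentially amplified, labelled with Cy3 and hybridized to Agilent SurePrint G3 mouse arrays. The deposited intensity values (processed signals) came from Agilent Feature Extraction 10.7.3.1, per the labels, and had the background subtracted and a spatial trend removed, with no scaling from array to array. The authors also deposited their own linear intensity values, normalized within and between arrays by a method not given in the sources used here, with missing values where flags failed. Exponential amplification can change the ratio between RNAs of a fiber, so levels are compared between groups and not between genes.

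Here the log2 of each deposited signal was taken and the 75th percentile of the array subtracted. Spots not found, not well above background or not uniform, by the flags in the deposited files, were set to missing, repeated spots of a probe were averaged, and probes measured on 75% or more of the arrays stayed in (the 20 Wt and Smn1ΔSkm arrays for that comparison, all 27 for the others). The passing probe with the highest mean over those arrays stood for a gene. Means per mouse entered 1 limma fit (limma 3.58.1, R 4.3.3) over all 7 mice with Benjamini-Hochberg adjustment over all genes, tested on simulated data. The labels name mice and fibers, and fibers of a mouse are not independent. The members and gene lists were chosen with earlier results of these data known. Named with full values were the called members, Tomm20, Tomm22, Tomm40, Tomm70a, Timm23, Timm50, Timm44, Samm50, Pmpca, Pmpcb and members with probes of opposite sign, and the called genes of the wider list. Mtx2, Timm17a, Tomm34 and Timm8a1 were added after their values were seen. Alternatives covered scaling, background correction, filters, probe choice, the replicate, slide and mouse blocks, and leaving out mice or fibers. Promoters were read from RefSeq sequences of GRCm38.p6, and probe positions from the array files in mm9.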

Additional observations from a re-analysis of the deposited data

Results flagged for a closer look

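Only Wt and AFS-treated groups of fibers were examined for outlying fibers. The Smn1ΔSkm groups, with 11 or 12 fibers for each gene, were not. In 4 of 50 groups of fibers examined, 1 fiber lay farther from its nearest neighbour than Dixon's 95% limit allows, and chance alone flags about 5% of groups. Pmpcb in AFS-treated myofiber 3 of mouse 1 was at 4.97, with the next highest fiber at 2.82. Timm50 in Wt myofiber 8 of mouse 2 was at 1.90, with the next lowest at 3.12. Timm50 in AFS-treated myofiber 4 of mouse 1 was at 3.87, with the next highest at 2.93. Timm8b in AFS-treated myofiber 1 of mouse 1 was at 6.36, with the next highest at 5.86.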

How the results depend on the processing

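In Smn1ΔSkm against Wt the 5 import genes called became 3 under quantile normalization, in the authors' value table and with arrays centred on probes valued everywhere. They became 1 without a filter on missing values, 12 with myofibers as replicates and 1 with slide as a random block. Over the array, 9269 of 17059 genes were called with myofibers as replicates and 1880 with slide as a random block. Without that filter 2771 of 24643 were called. Leaving out 1 mouse gave 0 to 10 calls and a median between -0.46 and -0.28. The median of -0.39 moved to -0.15 under quantile normalization and normexp, -0.19 in the authors' table and -0.17 with centring. Mouse numbers name different animals and pair nothing; deviations of same-numbered mice correlated at 0.14 and 0.04 between Wt and Smn1ΔSkm and at 0.31 and 0.19 between Smn1ΔSkm and AFS-treated. With the mouse number as a replicate block, 2 import genes were called in Smn1ΔSkm against Wt (median -0.33), against 2243 of 17059 genes. In AFS-treated against Smn1ΔSkm 0 were called (median 0.10). In AFS-treated against Wt 1 was called (median -0.15), against 939 of 16648 genes. With that block Timm8b turned to 0.047 and Tomm22 to 0.013 in Smn1ΔSkm against Wt.

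In AFS-treated against Smn1ΔSkm no alternative called an import gene; the median of 0.21 moved to 0.086 under quantile normalization, 0.071 under normexp, 0.056 in the authors' table, 0.046 with slide as a random block and -0.10 with slide as a fixed block, and ran from 0.10 to 0.30 without 1 mouse. In AFS-treated against Wt the 1 call became 9 with myofibers as replicates, 3 with the mouse as a random block, 0 with slide as a random block and 0 to 4 without 1 mouse. Over the array, 6937 of 16648 genes were called there with myofibers as replicates and 3393 with the mouse as a random block. With slide as a random block 1155 were called, and without Smn1ΔSkm mouse 1 4839. The median of the import genes moved to -0.016 under quantile normalization, 0.018 under normexp and -0.029 with centring. Without 1 mouse it ran from -0.24 to -0.09.

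Differences that changed sign in Smn1ΔSkm against Wt, none of them called, were Dnajc19 (0.069 quantile, 0.34 normexp, 0.069 authors' table), Timm10 (0.022, 0.17 and 0.021), Timm8b (0.20, 0.50 and 0.20, 0.066 with centring, 0.015 with slide as a random block), Timm13 (0.059 normexp), Tomm22 (0.015 with centring), and, with the mean of a gene's probes, Timm17a (-0.10) and Tomm40 (-0.16). In AFS-treated against Wt, Timm44 turned to 0.032 under quantile normalization, 0.029 in the authors' table and 0.026 with centring. Without 1 mouse, Grpel1 ran from -0.031 to 0.42, Timm8b from -0.41 to 0.047, Tomm22 from -0.49 to 0.013, Tomm7 from -0.23 to 0.32, Tomm70a from -0.70 to 0.0043, Tomm6 in AFS-treated against Smn1ΔSkm from -0.26 to 0.10 and Timm44 in AFS-treated against Wt from -0.24 to 0.040. The cause was not tested; where a mouse was left out, fewer samples entered the fit. Samm50, Tomm34 and Timm9 lay above background but were not found on many arrays, and Timm8a2 had no value, which limits what can be said of them.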
